A study of Mus musculus with 34 samples.

Results

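Wnt proteins are secreted signals that bind frizzled receptors and LRP co-receptors at the cell surface, and the best known branch of the pathway stabilizes beta-catenin, which then acts with TCF/LEF factors in the nucleus. R-spondins and their LGR receptors strengthen the signal by removing the ubiquitin ligases Znrf3 and Rnf43, which otherwise clear frizzled proteins from the membrane, whereas secreted antagonists (SFRP, DKK and WIF proteins) dampen it. In the mouse mammary gland the pathway is known for its part in the maintenance of basal cells and in branching. The genes described here are 42 Wnt receptors, antagonists and effectors, taken by name: each probe whose symbol in the probe-to-gene table of the array is one of the 42 was included, and the Wnt ligands themselves were not. Of these genes 41 had a named probe, with 77 probes in all, out of 19057 genes and 45281 probes on the array, and *Tcf7* had no named probe and is not described.

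Expression was measured on 34 Illumina WG-6 version 2 arrays of sorted mammary epithelial cells (MECs): 9 of GFP+ CD24+CD29+ cells, 9 of GFP+ CD24+CD29lo cells, 6 of GFP- CD24+CD29+ cells and 10 of GFP- CD24+CD29lo cells. All came from virgin double-transgenic females 4 weeks of age (MMTVrtTA/H2BGFP, labelled CD1 backcrossed to FVB) kept on doxycycline, so GFP+ and GFP- cells carried the same transgenes and differed in whether the histone reporter, switched on by a transactivator under the mouse mammary tumor virus promoter, was visible. That promoter is active in only part of the MECs, so GFP marks cells by reporter activity and not by a known cell type. The gates rest on CD24, an antigen carried by MECs, and on CD29 (integrin beta-1), of which basal cells carry more than luminal cells. Dead cells and cells with blood, red cell or endothelial antigens were gated out before RNA was amplified from small inputs.

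Probes detected over the negative control beads (detection p under 0.05) made up 26.3% to 46.7% of each array, with a median of 38.2%. The arrays formed 2 technical sets, replicates 1 to 12 and replicates 13 to 34, which were found from a gap in the array medians of the processed values that the authors deposited, and GFP- CD24+CD29+ cells were measured in the second set only. GFP+ CD24+CD29lo replicate 22 had the lowest detected share, and its mean correlation with the arrays of its own group was 0.78. The sorted cells differed in the markers of their gates, but each gate also held signal of the other lineage. *Krt14*, *Krt5* and *Acta2* were detected on all CD24+CD29lo arrays, and *Krt8* and *Krt18* on all CD24+CD29+ arrays. The median level of *Krt14* was 9.45 in GFP+ and 9.41 in GFP- CD24+CD29lo cells, against 13.15 and 12.91 in CD24+CD29+ cells. All 7 basal and myoepithelial markers were called higher in CD24+CD29+ than in CD24+CD29lo cells among GFP+ cells and 6 of 7 among GFP- cells, and all 6 luminal markers with a probe were called lower in both. Separate animals are not stated, so p-values measure the spread between these samples.

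Values are normalized log2 levels of 1 probe a gene (the probe of highest mean), differences are on the same log2 scale, and "called" means an adjusted p under 0.05 in limma, by Benjamini-Hochberg over the probes that passed the filter. In these bulk samples fewer cells of a type and less RNA per cell cannot be told apart. Of the 41 genes, 7 were detected on all 34 arrays (*Fzd7*, *Lrp5*, *Lrp6*, *Lgr4*, *Sfrp2*, *Axin1* and *Tcf7l2*), and *Fzd2* and *Sfrp4* were detected on none. *Dkk1* was detected on 1 array and *Dkk2* on 4, and these 4 genes did not pass the filter on dim probes, which left 37 genes for the tests.

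**Figure D1:**
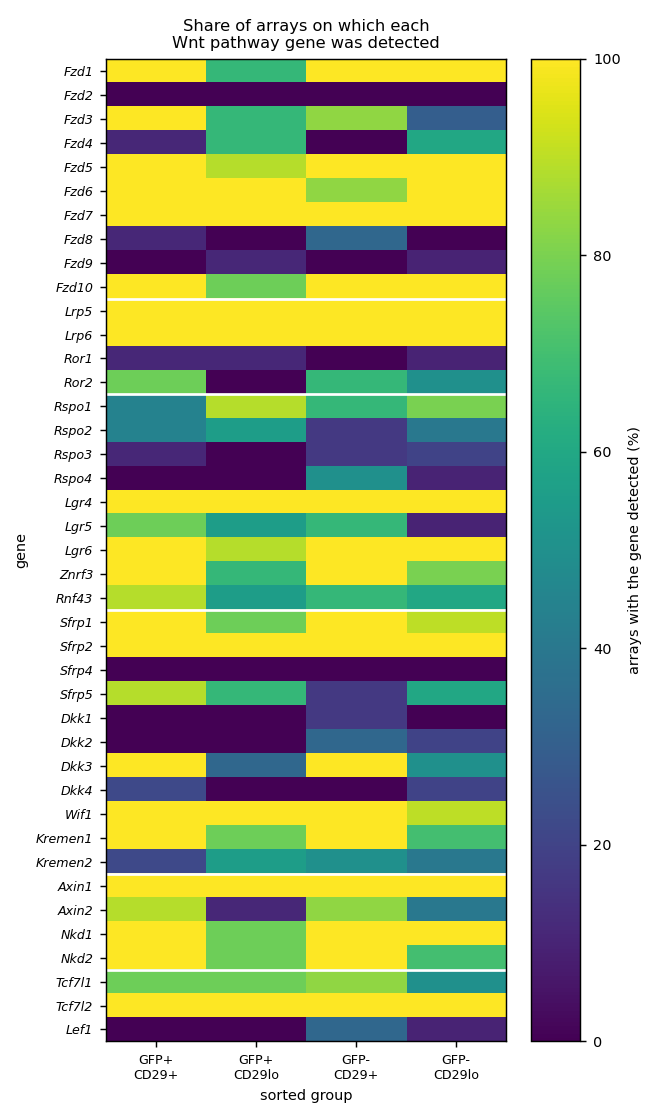
Share of arrays (percent, color) on which each of the 41 genes was detected, by sorted group, with white lines between the classes of genes. *Dkk3* was detected on all arrays of both CD24+CD29+ groups but on 3 of 9 GFP+ and 5 of 10 GFP- CD24+CD29lo arrays, and *Fzd2* and *Sfrp4* were detected on none.

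Sequences upstream of 4 genes are shown because 3 of them (*Fzd7*, *Lgr4* and *Wif1*) had among the largest differences between the gates and *Axin2* is the member most widely used as a readout of beta-catenin. Each window holds 250 bases before and 50 bases after a RefSeq transcription start, on the strand of the gene (GRCm38.p6), and 26 of the 42 genes had at least 1 window (32 windows). Capitals mark the TCF/LEF core motif, CTTTGNT, on either strand (on the other it reads ANCAAAG).
*Fzd7* (chr1:59481897-59482196, plus strand): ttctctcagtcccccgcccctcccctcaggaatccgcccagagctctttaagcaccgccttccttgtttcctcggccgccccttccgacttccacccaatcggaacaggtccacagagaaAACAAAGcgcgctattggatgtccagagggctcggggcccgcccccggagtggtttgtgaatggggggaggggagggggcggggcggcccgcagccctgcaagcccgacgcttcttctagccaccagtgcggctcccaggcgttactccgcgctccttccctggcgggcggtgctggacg
*Lgr4* (chr2:109917397-109917696, plus strand): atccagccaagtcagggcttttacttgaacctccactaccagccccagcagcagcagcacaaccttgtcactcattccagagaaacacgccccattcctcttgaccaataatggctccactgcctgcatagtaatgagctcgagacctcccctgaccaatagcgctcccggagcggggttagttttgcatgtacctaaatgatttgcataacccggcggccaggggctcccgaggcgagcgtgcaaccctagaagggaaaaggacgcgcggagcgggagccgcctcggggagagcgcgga
*Wif1* (chr10:121033754-121034053, plus strand): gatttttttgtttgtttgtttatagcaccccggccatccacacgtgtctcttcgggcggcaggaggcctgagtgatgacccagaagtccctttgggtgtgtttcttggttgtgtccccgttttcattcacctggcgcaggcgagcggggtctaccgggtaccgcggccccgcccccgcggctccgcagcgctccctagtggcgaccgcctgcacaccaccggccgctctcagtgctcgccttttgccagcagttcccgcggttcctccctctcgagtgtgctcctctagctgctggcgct
*Axin2* (chr11:108920099-108920398, plus strand): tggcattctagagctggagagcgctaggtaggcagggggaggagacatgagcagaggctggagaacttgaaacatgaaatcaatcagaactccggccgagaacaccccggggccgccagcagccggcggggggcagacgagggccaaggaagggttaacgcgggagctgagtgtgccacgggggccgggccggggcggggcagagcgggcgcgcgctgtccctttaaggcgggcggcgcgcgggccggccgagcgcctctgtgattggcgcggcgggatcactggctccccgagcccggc
The motif occurred in 3 of the 32 windows of these genes, 1 each of *Fzd7*, *Dkk1* and *Tcf7l2*, and in 18.6% of all 32851 windows of the reference. In the *Fzd7* window it began 130 bases before the start, on the opposite strand, and the *Lgr4*, *Wif1* and *Axin2* windows did not hold these letters. The windows of these genes had a median of 66.3% G and C, against 52.7% over all windows.

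The first question is how these genes differ between CD24+CD29+ and CD24+CD29lo cells. Among GFP+ cells 18 genes were called, 16 of them higher in CD24+CD29+ cells (*Fzd1*, *Fzd3*, *Fzd7*, *Fzd10*, *Ror2*, *Lgr4*, *Lgr5*, *Lgr6*, *Znrf3*, *Sfrp1*, *Dkk3*, *Wif1*, *Kremen1*, *Axin2*, *Nkd1* and *Nkd2*) and 2 lower (*Sfrp2* and *Tcf7l2*). Over all genes tested 12.9% were called in this comparison, 6.7% higher and 6.16% lower. The other 19 tested genes were not called. Among GFP- cells 14 genes were called, 13 higher (*Fzd1*, *Fzd3*, *Fzd7*, *Rspo4*, *Lgr4*, *Lgr5*, *Lgr6*, *Znrf3*, *Sfrp1*, *Dkk3*, *Wif1*, *Kremen1* and *Tcf7l1*) and *Tcf7l2* lower, where the share over all genes was 12.9%, with 6.62% higher and 6.28% lower. The median difference over the 37 tested genes was 0.59 in GFP+ cells and 0.45 in GFP- cells, against -0.01 and 0.03 over all genes. The same 12 genes were called in both comparisons and in the same direction, 11 higher and *Tcf7l2* lower, against 7.71% of all genes.

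**Figure D2:**
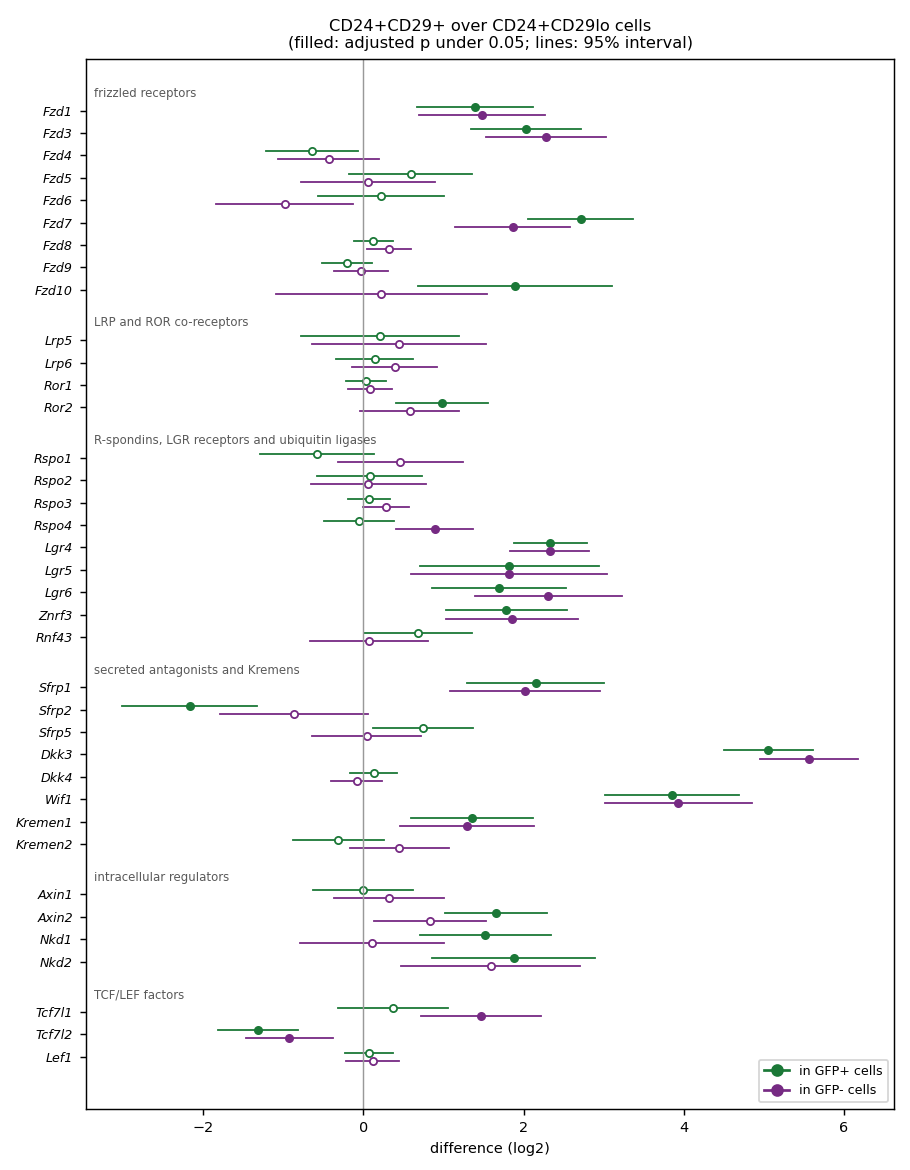
Difference of CD24+CD29+ over CD24+CD29lo cells (log2, x axis) for the 37 tested genes, in GFP+ cells (green) and GFP- cells (purple). Points are estimates, lines their 95% intervals and filled points the calls. *Dkk3* at 5.05 and 5.56 and *Wif1* at 3.85 and 3.93 lie farthest to the right, and *Tcf7l2* is called to the left of 0 in both.

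Of the frizzled receptors, 9 of 10 were tested, and 4 were called higher in CD24+CD29+ cells among GFP+ cells and 3 among GFP- cells. *Fzd7*, a receptor tied to beta-catenin signaling in mammary cells, had levels of 9.63, 10.69 and 11.28 (lowest, median and highest) in GFP+ CD24+CD29+ cells, against 6.88, 7.94 and 9.09 in GFP+ CD24+CD29lo cells. The 2 groups did not overlap. In GFP- cells its levels were 8.63, 9.91 and 10.71 in CD24+CD29+ cells, against 6.70, 7.67 and 9.20 in CD24+CD29lo cells, and 4 of the 6 CD24+CD29+ arrays lay above all 10 CD24+CD29lo arrays. The difference was 2.71 (SE 0.32, adjusted p = 9.65e-08) in GFP+ cells and 1.86 (SE 0.35, adjusted p = 0.000287) in GFP- cells (limma). The groups of GFP+ cells did not overlap in 3.82% of all genes and those of GFP- cells in 4.43%.

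*Fzd3*, best known in planar cell polarity, had levels of 6.56, 7.42 and 7.91 in GFP+ CD24+CD29+ cells, against 4.39, 5.17 and 6.28 in GFP+ CD24+CD29lo cells. These groups did not overlap, and the gene was detected on all 9 CD24+CD29+ and 6 of 9 CD24+CD29lo arrays. In GFP- cells the levels were 4.54, 7.46 and 8.52 in CD24+CD29+ cells, against 4.42, 4.78 and 5.87 in CD24+CD29lo cells. Here 5 of 6 CD24+CD29+ arrays lay above all CD24+CD29lo arrays, and replicate 30 lay among them. The differences were 2.03 (SE 0.34, adjusted p = 3.38e-05) and 2.28 (SE 0.37, adjusted p = 3.06e-05) in limma. A second probe differed by 1.64 and 1.03 and was called in both comparisons, and the remaining probe differed by 0.22 and 0.41 and was called in neither.

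*Fzd1* had levels of 5.74, 6.80 and 7.94 in GFP+ CD24+CD29+ cells, against 4.50, 5.24 and 7.36 in GFP+ CD24+CD29lo cells, with 3 of 9 CD24+CD29+ arrays above all others. In GFP- cells the levels were 7.40, 7.58 and 7.98 in CD24+CD29+ cells, against 5.02, 6.11 and 7.39 in CD24+CD29lo cells, so the groups did not overlap, though the lowest and highest arrays nearly touched. The differences were 1.40 (SE 0.35, adjusted p = 0.00638) and 1.48 (SE 0.39, adjusted p = 0.00916). Within the second array set they were 1.02 and 1.03 and were not called (adjusted p = 0.245 and 0.18 in limma). *Fzd10* was called in GFP+ cells only, with levels of 5.33, 8.48 and 9.48 in CD24+CD29+ cells, against 4.50, 6.03 and 7.87 in CD24+CD29lo cells, a difference of 1.89 (SE 0.59, adjusted p = 0.034). That call was lost on leaving out any 1 of 12 of the 18 arrays (replicates 1, 2, 3, 4, 12, 15, 16, 17, 24, 28, 32 and 34, adjusted p up to 0.0767) and in the first array set alone (0.50, adjusted p = 0.682), and its 2 other probes differed by -0.60 and -0.03 without a call.

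The remaining frizzled genes gave no call in either comparison. *Fzd4* lay near background. In GFP+ cells it was seen above it on 1 of 9 CD24+CD29+ and 6 of 9 CD24+CD29lo arrays, with a difference of -0.64 (95% interval -1.21 to -0.06, adjusted p = 0.188 in limma). In GFP- cells it was detected on 0 of 6 CD24+CD29+ and 6 of 10 CD24+CD29lo arrays. *Fzd6* differed by 0.22 in GFP+ cells and -0.98 in GFP- cells (adjusted p = 0.849 and 0.151), and *Fzd5* by 0.59 and 0.05. *Fzd8* and *Fzd9* were each detected on at most 2 arrays of any group.

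The co-receptors of the beta-catenin branch did not pass the test. *Lrp5* differed by 0.21 (95% interval -0.78 to 1.20) in GFP+ cells and 0.45 (-0.64 to 1.53) in GFP- cells, and *Lrp6* by 0.14 (-0.34 to 0.63) and 0.39 (-0.14 to 0.92), with both genes detected on all arrays. *Ror2*, a tyrosine kinase receptor for Wnt5a, was detected among GFP+ cells on 7 of 9 CD24+CD29+ arrays and on 0 of 9 CD24+CD29lo arrays. It was called higher in GFP+ CD24+CD29+ cells (adjusted p = 0.0169 in limma). Its mean was 1.4-fold higher there by a bound that takes the lowest signal detected on a CD24+CD29lo array for its undetected level. CD24+CD29+ arrays that did not detect it kept their measured level. The bound is on the group means and carries no sampling error, so it establishes no smallest difference. Neither array set alone gave that call (adjusted p = 0.0773 and 0.105). In GFP- cells *Ror2* was detected on 4 of 6 CD24+CD29+ and 5 of 10 CD24+CD29lo arrays and differed by 0.58 (adjusted p = 0.27), and *Ror1* was detected on at most 1 array of any group.

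Among R-spondins, LGR receptors and ubiquitin ligases, all 3 LGR receptors and *Znrf3* were called higher in CD24+CD29+ cells in both comparisons. *Lgr4* had levels of 8.55, 9.29 and 9.61 in GFP+ CD24+CD29+ cells, against 6.03, 7.13 and 7.27 in GFP+ CD24+CD29lo cells. In GFP- cells they were 7.66, 8.93 and 9.43 in CD24+CD29+ cells, against 5.81, 6.43 and 7.38 in CD24+CD29lo cells. The groups overlapped in neither comparison, and *Lgr4* was detected on every array. The differences were 2.33 (SE 0.22, adjusted p = 1.2e-09) and 2.32 (SE 0.24, adjusted p = 1.19e-08) in limma, 5.03-fold and 5.01-fold.

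*Lgr6*, a stem cell marker in mouse skin, had levels of 7.40, 8.68 and 10.43 in GFP+ CD24+CD29+ cells, against 5.43, 7.02 and 8.42 in GFP+ CD24+CD29lo cells, with 6 of 9 CD24+CD29+ arrays above all CD24+CD29lo arrays. In GFP- cells the groups did not overlap, with 8.22, 8.46 and 9.46 in CD24+CD29+ cells, against 5.26, 6.39 and 7.76 in CD24+CD29lo cells. The differences were 1.69 (SE 0.41, adjusted p = 0.00412) and 2.31 (SE 0.45, adjusted p = 0.000407) in limma. Of its 3 other probes, 1 gave 1.70 and 2.41, called in both, 1 gave 1.05 and 1.67, called in GFP- cells only, and 1 gave 0.01 and 0.50 with no call. In the first array set alone the GFP+ difference was 1.21 and was not called (adjusted p = 0.217).

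*Lgr5*, the stem cell marker of the mouse intestine, had the widest spread of the 41 genes within both CD24+CD29+ groups (SD 1.62, n = 9, in GFP+ and 2.00, n = 6, in GFP- cells). Its levels were 4.51, 7.10 and 9.46 in GFP+ CD24+CD29+ cells, against 4.50, 5.10 and 5.84 in GFP+ CD24+CD29lo cells, and 4.62, 5.81 and 9.61 in GFP- CD24+CD29+ cells, against 4.40, 4.59 and 5.00 in GFP- CD24+CD29lo cells. In GFP+ cells 7 of 9 CD24+CD29+ arrays lay above all CD24+CD29lo arrays, and in GFP- cells 4 of 6 did. The other 2 arrays of each CD24+CD29+ group, replicates 24 and 32 of GFP+ and 25 and 30 of GFP- cells, did not detect it. The difference was 1.82 in both comparisons (SE 0.55, adjusted p = 0.0258, and SE 0.60, adjusted p = 0.0471), and the second probe differed by 0.70 and 0.85 without a call. The call in GFP+ cells was lost without CD24+CD29+ replicate 1, 3 or 11 (adjusted p up to 0.0669), in the second array set alone (0.87, adjusted p = 0.677), where the first gave 2.96, and without background correction (0.90, adjusted p = 0.0588). In GFP- cells it was lost on leaving out any 1 of 13 of the 16 arrays, all but replicates 21, 25 and 30 (difference 1.19 to 2.20, adjusted p up to 0.205 in limma).

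*Znrf3*, the ubiquitin ligase that R-spondins act on, had levels of 5.36, 7.14 and 8.25 in GFP+ CD24+CD29+ cells, against 4.43, 5.43 and 5.88 in GFP+ CD24+CD29lo cells, with 8 of 9 CD24+CD29+ arrays above all others. In GFP- cells they were 6.45, 7.43 and 8.72 in CD24+CD29+ cells, against 4.68, 5.53 and 7.00 in CD24+CD29lo cells, with 5 of 6 above all others. The differences were 1.78 (SE 0.37, adjusted p = 0.000746) and 1.86 (SE 0.41, adjusted p = 0.00159). In the second array set alone the GFP+ difference was 1.78 and was not called (adjusted p = 0.0594 in limma). Its relative *Rnf43* differed by 0.68 (95% interval 0.01 to 1.35, adjusted p = 0.243) and 0.07 (-0.67 to 0.80, adjusted p = 0.942).

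The R-spondins themselves were dim. In GFP- cells *Rspo4* was detected on 3 of 6 CD24+CD29+ and 1 of 10 CD24+CD29lo arrays, with levels of 4.59, 5.58 and 6.76 in CD24+CD29+ cells, against 4.47, 4.65 and 5.58 in CD24+CD29lo cells, and was called higher in CD24+CD29+ cells (0.89, SE 0.24, adjusted p = 0.0106 in limma). The call was lost without CD24+CD29+ replicate 21 (adjusted p = 0.0582) and in the second array set alone (0.73, adjusted p = 0.197). It was detected on no GFP+ array. *Rspo1* differed by -0.57 in GFP+ cells (adjusted p = 0.41, and -1.10 with adjusted p = 0.0437 in the first array set alone), where 4 of 9 CD24+CD29+ and 8 of 9 CD24+CD29lo arrays detected it, and by 0.46 in GFP- cells (adjusted p = 0.53), and *Rspo2* and *Rspo3* differed by at most 0.29 in either comparison.

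The secreted antagonists held the largest differences. *Dkk3*, a divergent member of the Dickkopf family, had levels of 8.77, 10.30 and 10.79 in GFP+ CD24+CD29+ cells, against 4.37, 5.29 and 6.41 in GFP+ CD24+CD29lo cells, and 10.09, 10.59 and 11.03 in GFP- CD24+CD29+ cells, against 4.44, 4.79 and 6.32 in GFP- CD24+CD29lo cells. No array of either CD24+CD29lo group reached the lowest CD24+CD29+ array of its comparison. The differences were 5.05 (SE 0.27, adjusted p = 3.08e-15) and 5.56 (SE 0.30, adjusted p = 3.8e-15), 33.2-fold and 47.2-fold. The sizes depend on the background, since *Dkk3* was detected on 3 of 9 and 5 of 10 CD24+CD29lo arrays, and without background correction they were 3.30 and 3.64. Another probe differed by 4.52 and 3.85, called in both, and the remaining one by -0.22 and 0.22 without a call.

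*Wif1*, which binds Wnt proteins directly, had levels of 10.31, 10.71 and 11.08 in GFP+ CD24+CD29+ cells, against 5.49, 6.70 and 9.18 in GFP+ CD24+CD29lo cells. In GFP- cells they were 9.54, 10.27 and 10.62 in CD24+CD29+ cells, against 4.82, 6.25 and 8.22 in CD24+CD29lo cells. The groups overlapped in neither comparison. The CD24+CD29lo arrays were the more spread, with an SD of 1.21 (n = 9) and 1.10 (n = 10), against 0.30 (n = 9) and 0.36 (n = 6) for CD24+CD29+ arrays. The differences were 3.85 (SE 0.41, adjusted p = 1.12e-08) and 3.93 (SE 0.45, adjusted p = 6.16e-08) in limma.

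*Sfrp1*, a secreted frizzled-related protein, had levels of 7.23, 8.10 and 9.77 in GFP+ CD24+CD29+ cells, against 4.55, 6.72 and 7.62 in GFP+ CD24+CD29lo cells. In GFP- cells they were 7.31, 7.91 and 9.01 in CD24+CD29+ cells, against 4.60, 5.97 and 7.36 in CD24+CD29lo cells. In GFP+ cells 6 of 9 and in GFP- cells 5 of 6 CD24+CD29+ arrays lay above all CD24+CD29lo arrays. The differences were 2.15 (SE 0.42, adjusted p = 0.000345) and 2.01 (SE 0.46, adjusted p = 0.0026), and its second probe was called in both comparisons, at 1.56 and 2.13.

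*Sfrp2*, of the same family, differed in the other direction among GFP+ cells. Its levels were 5.02, 7.50 and 8.85 in GFP+ CD24+CD29+ cells, against 8.45, 9.61 and 10.23 in GFP+ CD24+CD29lo cells, and 7 of 9 CD24+CD29+ arrays lay below all CD24+CD29lo arrays. The difference was -2.16 (SE 0.41, adjusted p = 0.000264 in limma), a 4.48-fold lower level. In the first array set alone it was -1.83 and was not called (adjusted p = 0.116). In GFP- cells *Sfrp2* had levels of 7.49, 8.13 and 8.87 in CD24+CD29+ cells, against 8.21, 8.87 and 10.18 in CD24+CD29lo cells, and the difference of -0.87 (95% interval -1.79 to 0.05) was not called (adjusted p = 0.258). *Sfrp5* differed by 0.74 (95% interval 0.12 to 1.37, adjusted p = 0.146) in GFP+ and 0.04 in GFP- cells. In GFP+ cells it was called higher in the first array set alone (1.23, adjusted p = 0.026) and in the authors' processed values, but not in the second set alone (0.18, adjusted p = 0.69). *Dkk4* differed by 0.13 and -0.08.

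*Kremen1*, a receptor that works with Dickkopf proteins to remove LRP co-receptors, had levels of 5.76, 7.28 and 7.60 in GFP+ CD24+CD29+ cells, against 4.55, 5.46 and 7.13 in GFP+ CD24+CD29lo cells. In GFP- cells they were 5.54, 6.53 and 8.99 in CD24+CD29+ cells, against 4.81, 5.34 and 6.57 in CD24+CD29lo cells. Both pairs of groups overlapped. The differences were 1.36 (SE 0.38, adjusted p = 0.0138) and 1.30 (SE 0.41, adjusted p = 0.0376 in limma). No array set alone gave a call, the GFP- call was lost on leaving out any 1 of 9 of the 16 arrays (replicates 5, 7, 21, 25, 26, 27, 29, 31 and 33, 0.85 to 1.54, adjusted p up to 0.172), and 2 further probes differed by 0.73 and 0.25 in GFP+ cells and 0.95 and -0.06 in GFP- cells without a call. *Kremen2* differed by -0.31 and 0.45 without a call.

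The intracellular feedback genes were called in GFP+ cells only. *Axin2*, a scaffold of the complex that degrades beta-catenin and itself a target of beta-catenin, had levels of 4.44, 6.36 and 8.45 in GFP+ CD24+CD29+ cells, against 4.38, 4.59 and 5.17 in GFP+ CD24+CD29lo cells. The 8 CD24+CD29+ arrays that detected it, all but replicate 11, lay above every CD24+CD29lo array, of which 1 of 9 detected it. The difference was 1.65 (SE 0.31, adjusted p = 0.000235 in limma). In GFP- cells its levels were 5.02, 5.53 and 6.37 in CD24+CD29+ cells, against 4.41, 4.75 and 5.75 in CD24+CD29lo cells, with detection on 5 of 6 and 4 of 10 arrays. That difference was 0.84 (95% interval 0.14 to 1.54) and was not called (adjusted p = 0.127).

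*Nkd1* and *Nkd2*, Dishevelled-binding inhibitors, followed with differences of 1.52 (SE 0.40, adjusted p = 0.00907) and 1.88 (SE 0.50, adjusted p = 0.00999) in GFP+ cells. *Nkd1* had levels of 6.99, 7.73 and 8.24 in GFP+ CD24+CD29+ cells, against 4.67, 6.17 and 7.73 in GFP+ CD24+CD29lo cells, and in GFP- cells it differed by 0.11 (95% interval -0.78 to 1.01). A second *Nkd1* probe differed by 0.41 and 0.70 without a call. The GFP+ call of *Nkd1* was lost in the second array set alone (1.71, adjusted p = 0.0791) and that of *Nkd2* in the first (1.04, adjusted p = 0.305). *Nkd2* differed by 1.59 in GFP- cells (95% interval 0.47 to 2.71) and missed the call in this fit (adjusted p = 0.06), but was called there once the array set entered the model (1.94, adjusted p = 0.0158), in the authors' processed values and among detected probes only. *Axin1*, the constitutive scaffold, was detected on every array and differed by -0.005 (95% interval -0.63 to 0.62) and 0.32 (-0.37 to 1.00).

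Of the TCF/LEF factors, *Tcf7l2* was the only gene of the 42 called lower in CD24+CD29+ cells in both comparisons. Its levels were 8.34, 9.00 and 9.38 in GFP+ CD24+CD29+ cells, against 9.79, 10.20 and 10.87 in GFP+ CD24+CD29lo cells, which did not overlap. In GFP- cells they were 8.08, 8.62 and 9.85, against 8.53, 9.70 and 10.74 in CD24+CD29lo cells, with 2 of 6 CD24+CD29+ arrays below all others. The differences were -1.31 (SE 0.24, adjusted p = 0.000186) and -0.92 (SE 0.27, adjusted p = 0.0213) in limma. The call in GFP- cells was lost once the array set entered the model (-0.76, adjusted p = 0.0676), in the second set alone (-0.65, adjusted p = 0.336) and without CD24+CD29+ replicate 13, 25 or 30 (adjusted p up to 0.0793). Of its 5 other probes 4 passed the filter, and these differed by -1.71 to -0.07 in GFP+ cells, 1 of them called, and by -0.97 to 0.48 in GFP- cells, none called.

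*Tcf7l1*, largely a repressor, was called higher in CD24+CD29+ cells among GFP- cells, with levels of 5.22, 6.67 and 7.60, against 4.58, 5.04 and 5.83 in CD24+CD29lo cells (1.47, SE 0.37, adjusted p = 0.00654 in limma), and 5 of 6 CD24+CD29+ arrays lay above all others. In GFP+ cells it differed by 0.37 (adjusted p = 0.642), while its second probe was called there (0.63, adjusted p = 0.0286) and not in GFP- cells (0.36, adjusted p = 0.335). *Lef1* gave no signal over background in GFP+ cells, and in GFP- cells it was detected on 2 of 6 CD24+CD29+ and 1 of 10 CD24+CD29lo arrays.

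**Figure D3:**
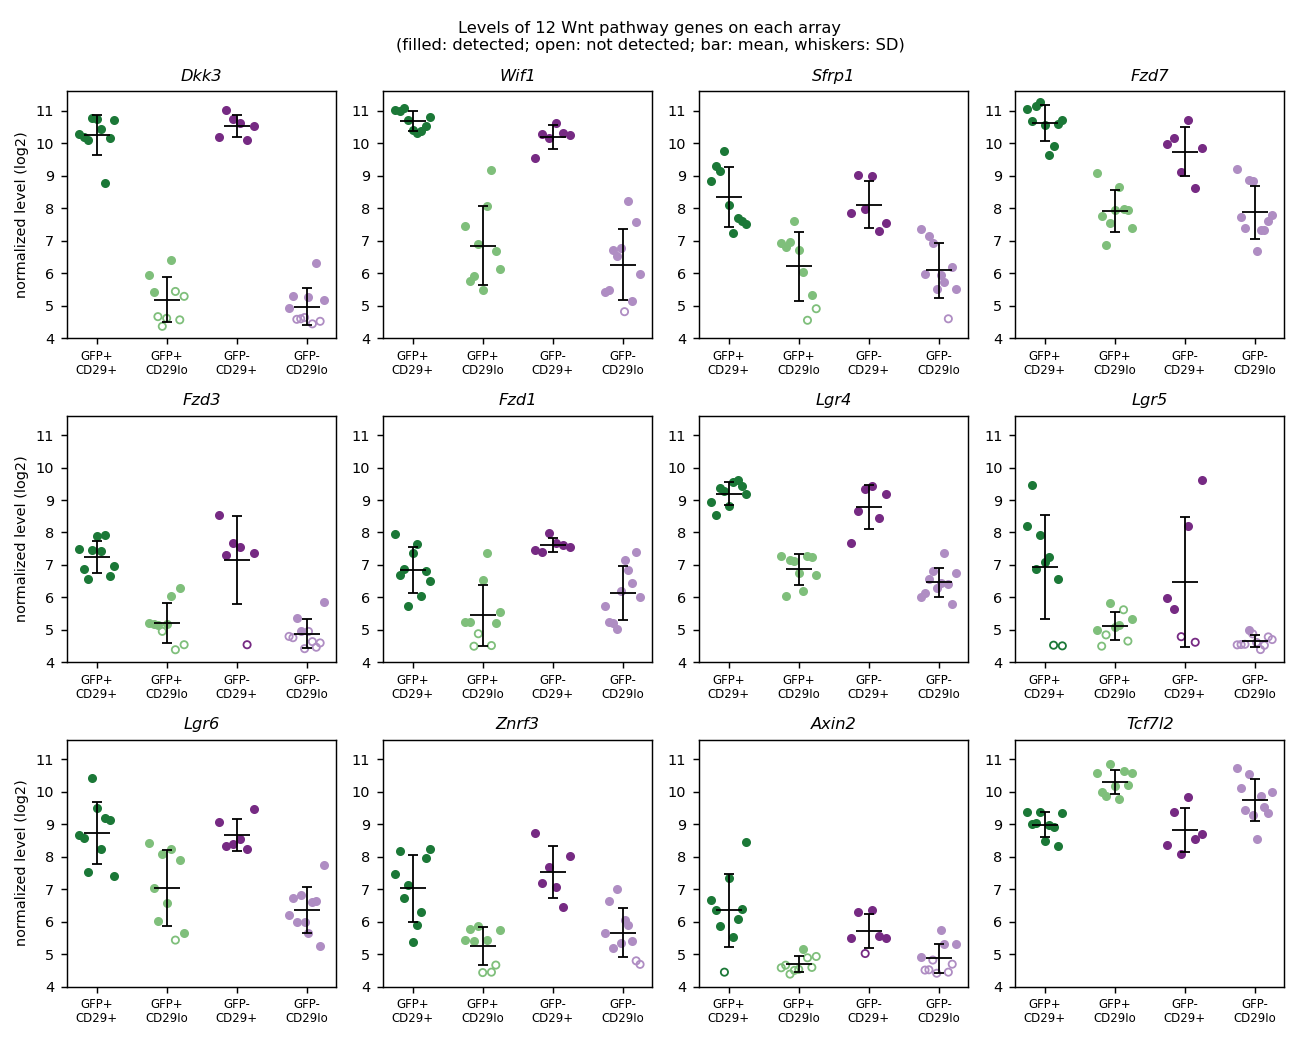
Normalized level (log2, y axis) of 12 genes on each of the 34 arrays, by sorted group (x axis), with the mean as a bar and the SD as whiskers, filled points where the gene was detected and open points where it was not. *Dkk3*, *Wif1* and *Lgr4* do not overlap between CD24+CD29+ and CD24+CD29lo cells of either GFP class, and *Lgr5* spreads from 4.51 to 9.46 within GFP+ CD24+CD29+ cells.

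In total 8 genes were called in 1 gate comparison only: *Fzd10*, *Ror2*, *Sfrp2*, *Axin2*, *Nkd1* and *Nkd2* in GFP+ cells and *Rspo4* and *Tcf7l1* in GFP- cells. A call in one and not the other does not show that the gate differences differed, and the test of that difference called none of the 37 genes (limma, 5 at an unadjusted p under 0.05, lowest adjusted p = 0.344), where 0.411% of all genes were called, 0.127% with a positive and 0.284% with a negative value. The gate difference in GFP- cells minus that in GFP+ cells was 1.29 for *Sfrp2* (95% interval 0.04 to 2.54) and 1.10 for *Tcf7l1* (0.08 to 2.12). For *Sfrp2* the gate differences were -0.87 in GFP- and -2.16 in GFP+ cells, so the smaller in size was in GFP- cells. The value was -1.41 for *Nkd1* (-2.62 to -0.20) and -1.20 for *Fzd6* (-2.36 to -0.04). The second probes of *Tcf7l1* and *Nkd1* had the opposite sign, at -0.28 (-0.86 to 0.31) and 0.29 (-0.53 to 1.11). That of *Fzd6* gave -1.36 (-2.54 to -0.19). This fit had no array set term, and all GFP- CD24+CD29+ arrays were in the second set. For *Rspo4*, which had the lowest adjusted p, no size is given because no GFP+ array of either gate detected it. For *Axin2* the value was -0.81 (-1.76 to 0.13, adjusted p = 0.664 in limma).

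Markers of other cell types were read beside these gate differences. *Dcn* was called higher in CD24+CD29+ cells in both comparisons and *Col3a1* in GFP- cells, 1 and 2 of 6 fibroblast markers. The summed level of that list ranged from 8.17 to 10.13 in GFP+ CD24+CD29+ cells, against 7.35 to 9.05 in GFP+ CD24+CD29lo cells, and from 9.51 to 10.80 in GFP- CD24+CD29+ cells, against 7.25 to 9.07 in GFP- CD24+CD29lo cells, with *Dpt* detected on no GFP+ array and *Lum* on no CD24+CD29lo array. Of 3 pericyte markers *Rgs5* was called higher in GFP- CD24+CD29+ cells (summed level 7.14 to 9.72, against 6.34 to 7.25 in GFP- CD24+CD29lo cells, and 6.62 to 7.97 in GFP+ CD24+CD29+, against 6.70 to 7.67 in GFP+ CD24+CD29lo cells), and of 3 adipocyte markers *Fabp4* was called higher in both comparisons. The summed adipocyte level ranged from 6.47 to 9.31 in GFP+ CD24+CD29+ cells, against 6.09 to 7.80 in GFP+ CD24+CD29lo cells. In GFP- cells it ranged from 7.66 to 12.14 in CD24+CD29+ cells, against 6.45 to 8.90 in CD24+CD29lo cells. *Adipoq* and *Plin1* were each detected on at most 3 arrays of any group and on no GFP- CD24+CD29+ array. That sum therefore follows mainly *Fabp4*. *Sox10*, the 1 of 3 Schwann cell markers with a probe, was called lower in GFP+ CD24+CD29+ cells (-1.73, adjusted p = 0.031 in limma). *Sox10* was detected on 8 of 9 arrays of that group and on every array of the other groups, with group medians of 6.71 to 8.53. None of 4 endothelial and 3 immune markers with a probe was called (limma, 0 at an unadjusted p under 0.05 in GFP+ and 1 in GFP- cells), and *Emcn* and *Ptprc* were detected on no array. *Rgs5* was also called in the test of whether the gate differences differed, with the larger value in GFP- cells. The part of such cells in the gate differences was not tested.

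The second question is whether the genes differ between GFP+ and GFP- cells of 1 gate. In CD24+CD29lo cells none of the 35 genes tested there was called (limma, 5 at an unadjusted p under 0.05, and also 0 called and 5 by the methods' t-test), where 1.46% of all genes were called, 0.308% higher and 1.15% lower in GFP+ cells. *Axin2* and *Ror1* did not pass the filter in that gate. The largest difference was that of *Fzd10*, with levels of 4.50, 6.03 and 7.87 in GFP+ cells, against 6.07, 7.90 and 9.50 in GFP- cells, and 6 of 9 GFP+ arrays lay below all 10 GFP- arrays. The difference was -1.75 (95% interval -2.84 to -0.66, adjusted p = 0.153), and its 2 other probes differed by 0.23 and -0.01. *Lgr5* passed the detection limit on 5 of 9 GFP+ and 1 of 10 GFP- arrays of that gate, with 5 GFP+ arrays above all GFP- arrays and a difference of 0.49 (0.16 to 0.83, adjusted p = 0.217 in limma). *Tcf7l2* differed by 0.55 (0.05 to 1.06, adjusted p = 0.437) and *Fzd6* by -0.57 (-1.10 to -0.04, adjusted p = 0.454). *Ror2*, the remaining gene of the 5, was detected on no GFP+ array and 5 of 10 GFP- arrays of this gate, so its size is not given (adjusted p = 0.48). Within the first and second array sets the difference of *Tcf7l2* was 0.10 and 0.90.

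In the same comparison the basal marker *Acta2* was called higher in GFP+ CD24+CD29lo cells (2.61, SE 0.61, adjusted p = 0.0437 in limma), the only one of 7 basal markers called, and the summed basal level ranged from 8.00 to 12.35 in GFP+ cells, against 8.99 to 11.07 in GFP- cells. Of 6 luminal markers 1 was called, *Esr1*, the estrogen receptor, lower in GFP+ cells (-2.74, SE 0.43, adjusted p = 0.00154). The other 5 differed by -0.49 (*Krt19*) to 0.73 (*Kit*), the median of the list was 0.07, and its summed level ranged from 13.99 to 14.78 in GFP+ cells, against 13.97 to 14.81 in GFP- cells. Of 3 adipocyte markers *Fabp4* was called lower in GFP+ cells (-2.13, SE 0.42, adjusted p = 0.0129 in limma). The summed level was 6.09 to 7.80 in GFP+ cells, against 6.45 to 8.90 in GFP- cells. *Plin1* was detected on none of these arrays and *Adipoq* on 1 of 9 GFP+ and 3 of 10 GFP- arrays. The part of such cells in the values of *Lgr5* and *Fzd10* was not tested. For the antagonists the estimates in CD24+CD29lo cells were 0.22 for *Dkk3* (95% interval -0.39 to 0.84), 0.58 for *Wif1* (-0.46 to 1.62) and 0.10 for *Sfrp1* (-0.78 to 0.98).

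In CD24+CD29+ cells none of the 37 genes was called (limma, 6 at an unadjusted p under 0.05), where 0.0518% of all genes were called. *Sfrp5* differed by 1.08 (95% interval 0.14 to 2.01, adjusted p = 0.555), was detected on 8 of the 9 arrays of GFP+ and 1 of the 6 of GFP- cells, and had 6 GFP+ arrays above all GFP- arrays. *Fzd7* differed by 0.88 (0.20 to 1.57, adjusted p = 0.547), *Wif1* by 0.49 (0.13 to 0.86, adjusted p = 0.547), *Fzd1* by -0.79 (-1.44 to -0.15, adjusted p = 0.551) and *Rspo3* by -0.33 (-0.64 to -0.01, adjusted p = 0.561). The list depends on the probe used. Another probe of *Fzd10* differed by 1.19 (0.28 to 2.09) and another of *Fzd3* by 0.75 (0.11 to 1.39), neither called. The probes used for these genes gave -0.10 and 0.07. *Rspo4*, which no GFP+ array and 3 of 6 GFP- arrays of this gate detected, was not called (adjusted p = 0.505 in limma). The bound on its group means, in which GFP- arrays that did not detect it kept their measured level, was 1.4-fold lower in GFP+ cells. That bound carries no sampling error, so it establishes no smallest difference. All 6 GFP- arrays of this gate belong to the second array set, and within that set 4 genes reached an unadjusted p under 0.05 and none was called. There the difference was 0.17 for *Sfrp5*, 0.57 for *Fzd7*, 0.30 for *Wif1*, -0.83 for *Fzd1* and -0.40 for *Rspo3*. Over both array sets no tested fibroblast, pericyte or adipocyte marker was called between GFP+ and GFP- CD24+CD29+ cells (limma). Mean levels in GFP+ and GFP- cells were 4.82 and 8.04 for *Rgs5*, 5.56 and 8.41 for *Col3a1*, and 7.95 and 9.74 for *Fabp4*. Of these lists only *Lum* and *Plin1* had the higher mean in GFP+ cells. The part of such cells in the values of *Rspo4* and the other genes was not tested.

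**Figure D4:**
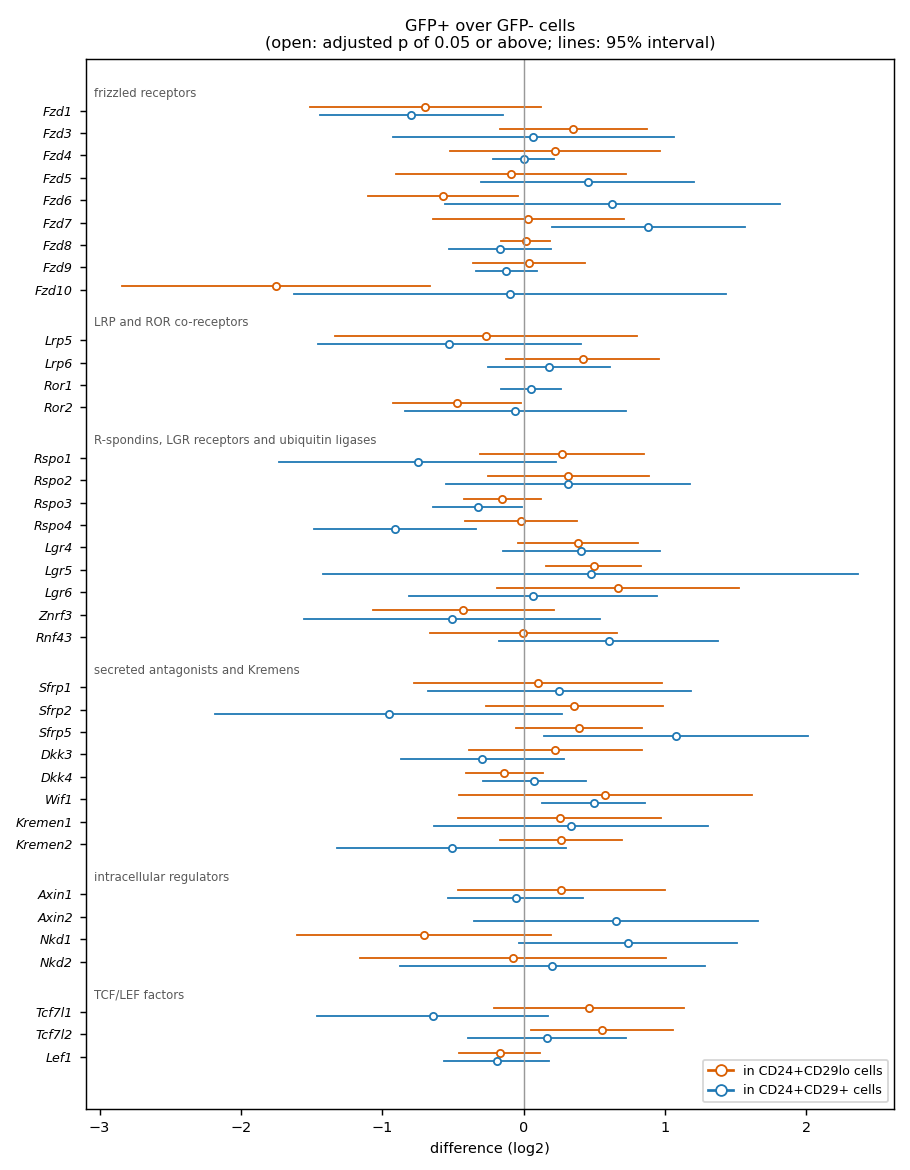
Difference of GFP+ over GFP- cells (log2, x axis) for the tested genes, in CD24+CD29lo cells (orange, 35 genes) and CD24+CD29+ cells (blue, 37 genes), with 95% intervals as lines. All points are open since none was called, and *Fzd10* in CD24+CD29lo cells lies farthest from 0 at -1.75.

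Other genes of the pathway were read from lists fixed for this purpose. Over all genes tested, 12.9% were called in each gate comparison. Between GFP+ and GFP- CD24+CD29lo cells the share was 1.46%. Of 12 other extracellular modulators 11 were tested, with 7 higher and 1 lower in CD24+CD29+ cells among GFP+ cells and 8 higher and 1 lower among GFP- cells. The largest were *Bgn*, a matrix proteoglycan (4.59 in GFP+ and 5.45 in GFP- cells), *Sostdc1*, an LRP-binding antagonist (4.27 and 3.42), and *Gpc3*, a glypican (3.70 and 3.59). Of 19 Wnt ligands 17 were tested, with 1 higher and 2 lower in GFP+ cells and 1 higher and 3 lower in GFP- cells. *Wnt7b* was lower in CD24+CD29+ cells (-2.83 and -4.09). *Wnt10a* was called higher there in both comparisons. Its size in GFP+ cells is not given because none of the 9 GFP+ CD24+CD29lo arrays detected it. In GFP- cells it differed by 4.10, with detection on 1 of 10 CD24+CD29lo arrays. Between GFP+ and GFP- CD24+CD29lo cells 2 of 15 tested ligands were called, *Wnt5b* higher (1.26, adjusted p = 0.0297) and *Wnt5a* lower (-2.84, adjusted p = 0.0331 in limma) in GFP+ cells. In the beta-catenin core 2 of 25 tested genes were called in GFP+ cells, *Ctbp2* higher (0.97) and *Csnk1e* lower (-1.68), and none in GFP- cells, where 7 reached an unadjusted p under 0.05 (limma).

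Of 10 tested general targets of beta-catenin, 3 were higher and 2 lower in CD24+CD29+ cells among GFP+ cells. Among GFP- cells 3 were higher and 3 lower. The share called over all genes was 12.9% in each gate comparison, for this list and those below. *Ccn4* (2.99 and 3.38) and *Procr*, a surface receptor of basal cells (2.20 and 3.19), were higher, and *Ccnd1*, cyclin D1, was lower (-2.13 and -1.36). The list moved in both directions, with medians of 0.05 and 0.06. Of 11 tested genes of planar polarity and other Wnt receptors, 4 were higher and 1 lower in GFP+ cells and 1 was higher in GFP- cells, *Prickle2* in both (1.59 and 2.74), and of 5 genes of Wnt secretion and release 2 were higher in each, *Porcn*, the enzyme that acylates Wnt proteins, in both (1.46 and 1.02).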

How the data were processed

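Total RNA of sorted MECs was isolated with a micro column kit, amplified with a NuGEN kit and hybridized to Illumina WG-6 version 2 arrays, 1 per sample. The deposited intensity values are probe signals on a linear scale that the authors left without normalization, and beside each stands a deposited fraction, namely 1 less the detection p. A second deposited table holds log2 values after processing by the authors. Their methods state quantile normalization and an empirical Bayes correction for 2 collection dates, but which steps made that table is not given in the sources used here. The processing notes name R 2.14.1.

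For the values reported, neqc of limma 3.58.1 in R 4.3.3 estimated the background of each array from its detection p, added an offset of 16 and gave quantile-normalized log2 levels. All 34 arrays were normalized together for the levels, the gate comparisons and the difference of the GFP effect, whereas the 19 CD24+CD29lo and the 15 CD24+CD29+ arrays were normalized on their own for GFP+ against GFP- cells. A probe entered the tests if it exceeded its array's 20th percentile on no fewer than 80% of the arrays of any 1 group. Tests were two-sided moderated tests of limma without a batch term, adjusted by Benjamini-Hochberg over all probes kept. Replicate numbers only count the samples, and the labels do not state which samples came from the same mice, so no pairing was used. A gene took its kept probe of highest mean. Symbols came from the platform table, updated by Entrez identifier (34885 probes with 1 symbol, 18 with several, 10378 with none). Genes called in both gate comparisons, genes called between GFP classes, and *Axin2*, *Lgr5* and *Lgr6* were to be named in full, and up to 3 called genes of each other list per gate comparison. The genes and lists were chosen with earlier results of these data known. The fits were tested on simulated data. Alternatives were other background correction, the authors' processed values, other filters, another probe, the array set as a term or alone, and leaving out each array. The t-test of the methods was a further one, run on the neqc values without batch correction. Background shares count 1 probe a gene.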

Additional observations from a re-analysis of the deposited data

Results flagged for a closer look

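For the 20 genes named in full or called in a gate comparison, the arrays of each group were searched for 1 array lying far from the rest, and 6 of 80 gene and group pairs held one, where chance gives about 1 in 20. *Dkk3* was lowest on GFP+ CD24+CD29+ replicate 24, at 8.77, against 10.1 on the nearest array, and highest in GFP- CD24+CD29lo cells on replicate 26, at 6.32, against 5.29. *Fzd3* was lowest in GFP- CD24+CD29+ cells on replicate 30, at 4.54, against 7.32. *Ror2* was highest in GFP- CD24+CD29lo cells on replicate 14, at 6.65, against 5.54. *Rspo4* was highest in GFP+ CD24+CD29lo cells on replicate 22, at 5.88, against 4.76, and in GFP- CD24+CD29lo cells on replicate 14, at 5.58, against 4.89. Without replicate 22, 19 of 20 differences between the gates in GFP+ cells kept direction and call, and that of *Rspo4*, not called, changed sign.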

How the results depend on the processing

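None of the GFP comparisons, nor the difference of the GFP effect between gates, called a gene of the 42 under any alternative run. The count of calls between the gates ranged from 16 to 18 in GFP+ cells and from 12 to 14 in GFP- cells when single arrays were left out. In the second array set alone it was 9 in GFP- cells, with 9 of the 14 calls kept, and 12 in GFP+ cells, and the first set alone, with 4 arrays a group, gave 13 in GFP+ cells, 11 of them among the 18. Fewer arrays entered these fits. The sign of 2 values turned: *Rspo4*, not called, in GFP+ cells was 0.0066 in the authors' processed values, and *Tcf7l2*, called at -0.92, in GFP- cells was 0.48 for the probe of highest variance, the cause of which was not tested. On leaving out single arrays *Rspo4* in GFP+ cells, where no array detected it, ranged from -0.11 to 0.092, *Nkd1* in GFP- cells from -0.22 to 0.28 and *Fzd10* in GFP- cells from -0.12 to 0.67, none called. *Dkk3*, *Wif1*, *Lgr4*, *Fzd7*, *Fzd3* and *Sfrp1* kept direction and call in both comparisons under all of the alternatives run, and *Axin2* kept its call in GFP+ cells except in the first array set alone, where it did not pass the filter. The number of arrays limits the precision, and a gene detected on no array of a group has only a bound there. The labels do not state which samples came from the same mice, so the fits were unpaired and any such pairing was ignored.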
